A study of Mus musculus with 20 samples.

Results

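The 39 genes examined encode the contractile machinery of skeletal muscle fibres and the proteins that regulate, anchor and fuel it, and they were chosen by gene symbol. Of these 39, 38 had a row in the table of 14793 genes, namely 13 of 14 fast-fibre genes, 6 of 6 slow-fibre genes and 19 of 19 genes that both fibre types use. The counts of Tnnc2, the fast-fibre troponin C, were not analysed here. In a muscle fibre, myosin heavy chains pull on filaments of actin when calcium binds troponin, and fibres are classed as fast or slow by the myosin, light chain and troponin isoforms they hold. In mouse hindlimb muscle the fastest fibres carry Myh4, the next ones Myh1 and Myh2, and slow fibres carry Myh7, which the heart uses too.

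The samples were whole knee (stifle) joints of male C57BL/6Nci mice, operated on at 12 weeks of age, each with destabilization of the medial meniscus (DMM), an operation that cuts a meniscal ligament to induce osteoarthritis. Of 10 mice in each of 4 groups, 5 joints were sequenced as polyA RNA. After surgery the CTRL group had needle insertion alone, the MSC group had non-activated mesenchymal stromal cells, the TLR group had pIC-activated cells (pIC is a double-stranded RNA mimic that engages TLR3), and the STING group had cells activated through STING with cGAMP. Injections into the joint were made in weeks 3 and 5. The injected cells were grown from pooled adipose tissue of donor mice of the same strain and sex. The methods name cartilage, synovium, capsule and subchondral bone among the joint tissues taken, and do not name muscle. Joints are named here by group and replicate number, such as CTRL 5. The groups were compared to ask whether the injected cells, or their activation, go with a difference in muscle transcripts.

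Each library held 27955496 (STING 4) to 52529973 (CTRL 5) reads assigned to genes of the table. The 38 genes took 9.71, 11.7, 8.09, 9.17 and 10.9% of these reads in CTRL joints 1 to 5, and 4.75, 7.0, 5.44, 10.2 and 13.3% in the MSC joints. In the TLR joints they took 5.68, 11.6, 13.7, 7.51 and 6.78%, and in the STING joints 12.4, 15.9, 8.24, 9.33 and 7.31%. Muscle RNA was therefore plentiful in all 20 joints, most in STING 2 and least in MSC 1, and the 4 groups overlapped. As means ± SD (n = 5) the shares were 9.91 ± 1.42% in CTRL, 8.14 ± 3.57% in MSC, 9.05 ± 3.43% in TLR and 10.6 ± 3.51% in STING. Whether a joint with a lower share held fewer muscle fibres or less muscle RNA per fibre cannot be told apart in whole-joint RNA. The fast-fibre genes took 2.69 to 9.34% of reads. The slow-fibre genes took 0.00135% (CTRL 4, 95% Wilson interval 0.00125 to 0.00147%) to 0.0607% (CTRL 5, 0.0601 to 0.0614%), intervals that cover counting error only. Myh6, the heart's fast myosin, averaged 27.4 normalized counts and was at 0 in CTRL 4, while Nppa, Nppb and Myl7 were not analysed here.

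Per kilobase of canonical transcript, Acta1 (skeletal actin, the thin filament itself) had the highest mean level over the 20 joints, 251272 normalized counts per kilobase. Next came the fast genes Myh4 at 133433, Mylpf at 127366, Tnnt3 at 120947 and Tnni2 at 119912 per kilobase. Among the myosin heavy chains on this scale, Myh1 had 5244, Myh2 1633 and Myh7 299.8 per kilobase. The other slow-fibre genes lay at 1767 (Myl3), 1209 (Myl2), 1131 (Tnnt1), 789 (Tnnc1) and 452 (Tnni1) per kilobase, so Myh7, Tnni1 and Tnnc1 were the lowest of the 38 on this scale. Per kilobase of all exons joined, Myh4 came first at 119882 and Acta1 next at 111466, and the lowest were Tnni1, Myh7 and Myl2. Neighbours in the first order such as Mylpf, Tnnt3 and Tnni2 do not differ beyond the spread between joints.

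Myosin heavy chains are the motors, and the isoform sets how fast a fibre shortens. For Myh4 (ENSMUSG00000057003, chromosome 11, 67128855 to 67151273 on GRCm39), the isoform of the fastest fibres, the normalized count was 890750.0, 938727, 676620.0, 818322 and 765649 in CTRL joints 1 to 5, 321660.0, 535926, 432257, 661005 and 1075980.0 in the MSC joints, 507067, 1085730.0, 1237610.0, 582065 and 540350.0 in the TLR joints and 1193830.0, 1519910.0, 714067, 789795 and 601850.0 in the STING joints. STING 2 was highest and MSC 1 lowest, 4.73-fold apart, and every pair of groups overlapped. For Myh1 (ENSMUSG00000056328, chromosome 11, 67090878 to 67115402), an intermediate fast isoform, the count was 21400.1, 25002, 37517, 26030.0 and 90596 in CTRL joints 1 to 5, 35560.3, 44547, 18785, 93126 and 71183 in the MSC joints, 7862, 41915, 50748, 43176 and 35842 in the TLR joints and 26396, 56677, 25676, 19098 and 20256 in the STING joints. MSC 4 and CTRL 5 were the highest joints for Myh1 and TLR 1 stood far below the rest, a range of 11.8-fold with all groups overlapping. Myh2 (ENSMUSG00000033196, chromosome 11, 67061853 to 67088344), the isoform of fatigue-resistant fast fibres, had counts of 4520.1, 20314, 4233, 4225 and 28129 in CTRL joints 1 to 5, 7474, 8729, 5524, 23888 and 17033 in the MSC joints, 1605, 6828, 29632, 4279 and 4330.0 in the TLR joints and 4685, 10281, 5727, 16378 and 14137 in the STING joints. Its highest joint, TLR 3, and its lowest, TLR 1, belong to the same group and were 18.5-fold apart. The slow isoform Myh7 (ENSMUSG00000053093, chromosome 14, 55208141 to 55232084) had counts of 645, 4724, 21.4, 33.8 and 6526 in CTRL joints 1 to 5, 43.6, 85.0, 1475, 1531 and 2995 in the MSC joints, 378, 546, 4011, 64.2 and 2155 in the TLR joints and 245, 1792, 292, 5841 and 3378 in the STING joints. CTRL 5 had 305 times the Myh7 count of CTRL 3, which rested on 17 reads (95% Poisson interval 9.90 to 27.2), and high and low joints occurred in all 4 groups.

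**Figure D1:**
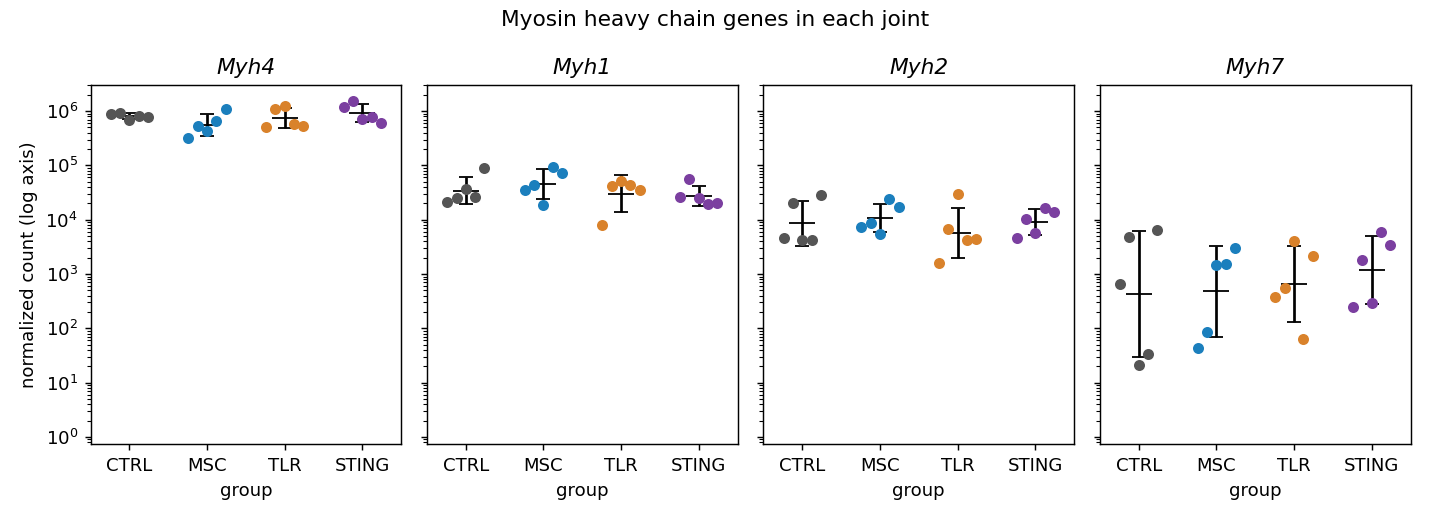
Normalized counts of Myh4, Myh1, Myh2 and Myh7 on log axes, with a point for each of the 5 joints of each group and a bar for the mean of the log2 values ± 1 SD. Myh4 spans 4.73-fold over the 20 joints and Myh7 305-fold, and the groups overlap in each panel.

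As a share of the summed level of these 4 heavy chains, each taken per kilobase, Myh4 made up 97.6, 95.7, 95.3, 97.1 and 88.2 in CTRL joints 1 to 5, 90.3, 92.6, 95.3, 87.3 and 93.6 in the MSC joints, 98.5, 96.5, 94.7, 93.9 and 94.1 in the TLR joints and 97.9, 96.5, 96.5, 95.7 and 95.0 in the STING joints (all in %). It was below 90% in CTRL 5 and MSC 4 alone. Myh1 ranged from 1.20% in TLR 1 to 9.71% in MSC 4, Myh2 from 0.273% in TLR 1 to 2.84% in CTRL 5, and Myh7 from 0.00292% in CTRL 3 to 0.730% in CTRL 5. Myh4 was thus the most abundant of these 4 heavy chains in every joint. By group, Myh4 averaged 94.8 ± 3.81 in CTRL, 91.8 ± 3.11 in MSC, 95.5 ± 1.94 in TLR and 96.3 ± 1.09 in STING (%, SD, n = 5), and Myh1 averaged 3.74 ± 2.68 in CTRL, 6.36 ± 2.52 in MSC, 3.52 ± 1.72 in TLR and 2.33 ± 0.525 in STING. Every MSC joint had a higher Myh1 share than every STING joint, with 3.27% the lowest in MSC and 2.84% the highest in STING. Per kilobase of all exons joined these were 3.10 and 2.68%. This separation was seen in the values and was not tested, and how many genes separate these groups was not counted. The Myh1 counts themselves overlapped, with MSC 3 at 18785 below the lowest STING joint, STING 4 at 19098. The share also depends on Myh4, which made up most of the sum. Of the 50-base windows in their transcripts, 21.5% for Myh1, 24.1% for Myh2, 19.1% for Myh4 and 22.6% for Myh7 also occur in another gene. The gene sharing most windows was Myh2 for Myh1, Myh1 for both Myh2 and Myh4, and Myh6 for Myh7, and how reads from shared stretches were counted is not stated.

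The fast light chains and troponins tracked Myh4. Mylpf (ENSMUSG00000030672, chromosome 7, 126808062 to 126813471), the fast regulatory light chain, had counts of 90299.5, 115280.0, 83659.9, 98397 and 105994 in CTRL joints 1 to 5, 45411, 88004, 48913, 98463 and 151489 in the MSC joints, 51372, 116016, 152989, 77460.1 and 82105 in the TLR joints and 130919, 182614, 81478, 89664 and 60724 in the STING joints. Myl1, the fast essential light chain, had counts of 81848, 115904, 78120.4, 92745 and 92858 in CTRL joints 1 to 5, 36290.1, 72380.1, 46485, 95564 and 125040.0 in the MSC joints, 48618, 106730.0, 135771, 63505 and 69848 in the TLR joints and 115773, 159935, 71972, 78032 and 55546 in the STING joints. Both were highest in STING 2 and lowest in MSC 1, with every pair of groups overlapping. Tnnt3 (ENSMUSG00000061723, chromosome 7, 142052573 to 142069747), which anchors fast troponin to tropomyosin, was at 194641, 303236, 193474, 217031 and 252246 in CTRL joints 1 to 5, 101398, 168456, 107252, 253111 and 325084 in the MSC joints, 107118, 251946, 308593, 163023 and 151879 in the TLR joints and 255259, 386752, 166188, 194413 and 141730.0 in the STING joints. Tnni2, the inhibitory subunit of fast troponin, was at 79363, 126680.0, 79048, 85669 and 99441 in CTRL joints 1 to 5, 43804, 77748, 43469, 108000.0 and 139701 in the MSC joints, 40226, 96631, 131048, 69247 and 71738 in the TLR joints and 104510.0, 158475, 68168, 79088 and 53457 in the STING joints. These both peaked in STING 2 and were lowest in MSC 1 (Tnnt3) and TLR 1 (Tnni2), 3.81- and 3.94-fold below it. Pvalb, a calcium buffer that speeds relaxation of fast fibres, was at 110314, 166048, 110439, 128953 and 137887 in CTRL joints 1 to 5, 56784, 102640.0, 55041, 134136 and 187699 in the MSC joints, 56787, 136336, 167934, 95632 and 100220.0 in the TLR joints and 132819, 210987, 92392, 100767 and 68704 in the STING joints. Its extremes were STING 2 and MSC 3, and its groups overlapped as well. Of the 38 genes, 9 lie opposite other genes of the table: Mylpf overlaps Septin1 and Tbc1d10b, Tnnt3 overlaps Prr33, Actn3 Ctsf, Atp2a1 Rabep2 and Mybpc2 Garin5a on the other strand, as do the slow genes Myl2 (Ccdc63), Myl3 (Pth1r) and Tnnc1 (Nisch) and the shared gene Mb (Apol6), and whether counting used the strand is not stated.

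Among the other fast-fibre genes, Actn3 (the fast alpha-actinin of the Z-disc) averaged 144053 ± 14332 in CTRL, 110073 ± 52453 in MSC, 135941 ± 56562 in TLR and 160569 ± 62382 in STING normalized counts (SD, n = 5). Atp2a1, the calcium pump that refills the stores of fast fibres, averaged 279617 ± 29146 in CTRL, 216707 ± 102514 in MSC, 258812 ± 106649 in TLR and 306481 ± 108082 in STING. Mybpc2, the fast myosin-binding protein C, averaged 72591 ± 8888 in CTRL, 56331 ± 27369 in MSC, 70855 ± 30324 in TLR and 86418 ± 37460.0 in STING. For all 3 genes the MSC mean was the lowest and the STING mean the highest, and every pair of groups overlapped. CTRL joints were closer together than those of the other groups for all 3. Actn3 ran from 124619 to 164945 in CTRL, and from 61091 (MSC 1) to 192422 (MSC 5) in MSC. Casq1, the calcium store protein of fast fibres, spanned 11579 to 40568, and Myoz1, a Z-disc protein, 12160.3 to 48324.

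The slow-fibre genes varied much more from joint to joint. Myl2 (ENSMUSG00000013936, chromosome 5, 122239014 to 122251536), the slow regulatory light chain that the heart ventricle also uses, had counts of 501, 2689, 108, 106 and 3083 in CTRL joints 1 to 5, 176, 269, 629, 1522 and 1322 in the MSC joints, 184, 339.6, 2357, 171 and 885 in the TLR joints and 405, 1064, 265, 2325 and 1619 in the STING joints. Myl3 (ENSMUSG00000059741, chromosome 9, 110570929 to 110598867), the slow essential light chain, had counts of 703, 4562, 244, 133 and 4934 in CTRL joints 1 to 5, 127, 194, 918, 2024 and 3269 in the MSC joints, 78.4, 474, 5306, 218 and 1226 in the TLR joints and 380.3, 963, 364, 4504 and 2664 in the STING joints. CTRL 2, CTRL 5, TLR 3 and STING 4 were the 4 highest joints for both, and Myl2 was lowest in CTRL 4 and Myl3 in TLR 1. Tnnt1 (ENSMUSG00000064179, chromosome 7, 4507569 to 4519382), the slow troponin T, was at 701, 3297, 229, 164 and 3384 in CTRL joints 1 to 5, 387, 261, 968, 1573 and 2031 in the MSC joints, 378, 427, 2460.0, 278 and 1214 in the TLR joints and 492, 1107, 389, 3011 and 2137 in the STING joints. Tnni1 (ENSMUSG00000026418, chromosome 1, 135707172 to 135738728), the slow troponin I, was at 187, 1363, 21.4, 59.4 and 1794 in CTRL joints 1 to 5, 29.5, 47.1, 352, 587 and 657 in the MSC joints, 102, 167, 1212, 35.2 and 465 in the TLR joints and 115, 538, 99.1, 1411 and 757 in the STING joints. Tnnc1 (ENSMUSG00000091898, chromosome 14, 30930269 to 30933687), the troponin C of slow fibres and heart, was at 227, 1669.6, 41.5, 24.7 and 1983 in CTRL joints 1 to 5, 34.2, 58.9, 401, 830.0 and 1175 in the MSC joints, 75.0, 203, 1130.1, 47.6 and 547 in the TLR joints and 113, 486, 99.1, 1528 and 711 in the STING joints. For these 3 troponins CTRL 5 was the highest joint and CTRL 3 or CTRL 4 the lowest, so the widest contrast lay inside the CTRL group, and all groups overlapped. From lowest to highest joint the range was 20.6-fold for Tnnt1, 29.1-fold for Myl2, 67.7-fold for Myl3, 80.4-fold for Tnnc1 and 84.0-fold for Tnni1. The lowest Tnni1 count rested on 17 reads (95% Poisson interval 9.90 to 27.2) and the lowest Tnnc1 count on 27 (17.8 to 39.3), so counting error is small beside these ranges.

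Genes used by both fibre types mostly followed the fast genes. Acta1 (ENSMUSG00000031972, chromosome 8, 124618508 to 124621491) had counts of 394852, 546241, 339792, 479579 and 499854 in CTRL joints 1 to 5, 187388, 294298, 226286, 445041 and 584842 in the MSC joints, 238394, 493807, 621829, 294268 and 282121 in the TLR joints and 591555, 719637, 339961, 405791 and 296395 in the STING joints. It was highest in STING 2 and lowest in MSC 1, and the groups overlapped. Ckm, the muscle creatine kinase that buffers ATP, was at 82954, 97275, 71142, 93097 and 90780.0 in CTRL joints 1 to 5, 36688, 64966, 46134, 82917 and 118268 in the MSC joints, 50485, 107422, 139855, 63998 and 62875 in the TLR joints and 119111, 160906, 76050.4, 89145 and 60089 in the STING joints. Across joints it followed Acta1 with r 0.99, group means subtracted. Mb, myoglobin, which stores oxygen in oxidative fibres, was at 6003, 10786, 7041, 5372 and 19272 in CTRL joints 1 to 5, 5561, 9012, 3764, 19478 and 16819 in the MSC joints, 2171, 7497, 16682, 7966 and 7843 in the TLR joints and 5961, 12645, 5458, 7845 and 6431 in the STING joints. Mybpc1, a myosin-binding protein C found in slow and fast fibres, was at 11496, 13561, 11846, 8046 and 28981 in CTRL joints 1 to 5, 10137, 15407, 6882, 26585 and 26849 in the MSC joints, 2634, 15799.7, 20211, 15314 and 18568 in the TLR joints and 9100.0, 19218, 8349.6, 10271 and 8564 in the STING joints. Mb and Mybpc1 were lowest in TLR 1, and their highest joints were MSC 4 and CTRL 5, the joints with the highest Myh1 shares, and all groups overlapped. Ttn, the giant spring of the sarcomere, averaged 168584 ± 24649.6 in CTRL, 135918 ± 63619 in MSC, 137082 ± 54655 in TLR and 173482 ± 66838 in STING (SD, n = 5). Ryr1, the calcium release channel, averaged 67337 ± 9972 in CTRL, 54716 ± 25574 in MSC, 69073 ± 29469.7 in TLR and 80187 ± 26287 in STING. Eno3, the muscle enolase of glycolysis, averaged 81308 ± 14188 in CTRL, 69149 ± 33117 in MSC, 77153 ± 33432 in TLR and 86485 ± 37351 in STING. For all 3 the MSC mean was lowest and the STING mean highest, inside overlapping ranges. The remaining 12 shared genes spanned between 3.24-fold (Ldb3, a Z-disc protein) and 9.53-fold (Actn2, the alpha-actinin of all fibres, 1382 in TLR 1 to 13175 in CTRL 5).

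Within groups, the residual SD of log2 counts was 1.52 (Tnnt1) to 2.83 (Myh7) for the 6 slow-fibre genes, beside a median of 0.26 over all 14793 genes. All 6 lay above the 99th percentile of genes. The median was 0.57 for the 13 fast-fibre genes and 0.54 for the 19 shared genes, with none of these 32 above the 99th percentile. Between these stood a set with intermediate spread: Actn2 at 0.82, Mybpc1 at 0.86, Mb at 0.86, Myh1 at 0.88 and Myh2 at 1.18. The extremes fell in few joints. STING 2 was highest for 26 of the 38 genes, 11 fast and 15 shared, and for none of the 6 slow genes. MSC 1 was lowest for 20 genes and TLR 1 for 11. CTRL 5 was highest for 5 of the 6 slow genes, with TLR 3 highest for Myl3, and the lowest joint for slow genes was CTRL 4 for 3, CTRL 3 for 2 and TLR 1 for 1.

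**Figure D2:**
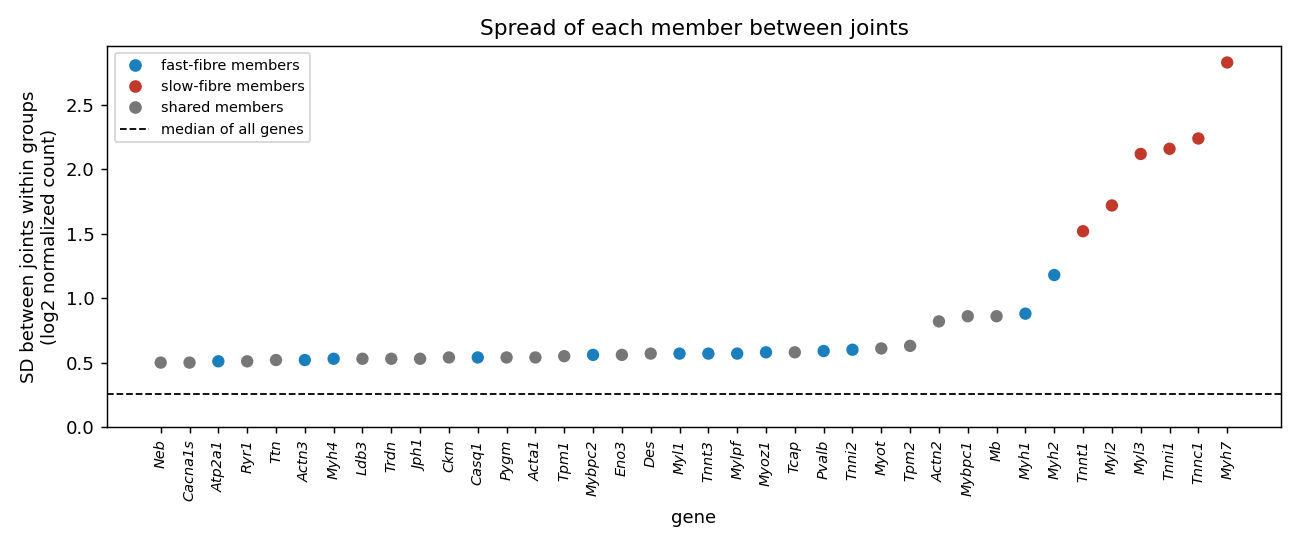
Residual SD of log2 normalized counts within groups for each of the 38 genes, ordered by increasing SD and colored by set, with a dashed line at the median of all genes (0.26). The 6 slow-fibre genes lie between 1.52 and 2.83.

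With group means subtracted, pairs of genes of the same fibre type moved together across the 20 joints. Pearson's r had a median of 0.97 over 78 pairs of fast genes (range 0.46 to 1.00) and 0.97 over 15 pairs of slow genes (range 0.92 to 0.99). Between fast and slow genes the median was 0.41 over 78 pairs (range 0.21 to 0.87, all 78 above 0), and between slow and shared genes 0.48 over 114. Fast and shared genes moved together as closely as fast genes did, with a median of 0.95 over 247 pairs (range 0.51 to 0.99). Genes of a joint share its library and depth, so these values are a description over genes that are not independent. Myh2 was the single non-slow gene closer to Myh7 (r 0.71) than to Acta1 (r 0.58). In a test of 9 single-gene relations, each over 20 joints with two-sided permutation p values and Benjamini-Hochberg adjustment over the 9, Acta1 and Myh4 gave r 0.97 (permutation p 1e-05, the smallest these permutations can give, adjusted 9e-05, with rho 0.96, permutation p 1e-05). Without the joints farthest from the median, MSC 5 and TLR 3, r was 0.95. Myh4 and Myh7 gave r 0.34 (permutation p 0.141, adjusted 0.318, with rho 0.31, permutation p 0.178), and 0.18 without the same joints, so these 2 were not shown to move together. Values with group means subtracted were shuffled over all 20 joints, although they hold 16 residual degrees of freedom. The permutation p values of the 9 relations may therefore be too small.

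Against markers of other joint tissues, Acta1 was lower where cartilage collagen Col2a1 was higher (r −0.54, permutation p 0.0152, adjusted 0.0558, rho −0.48 with permutation p 0.0334), which missed the adjusted threshold of 0.05. The neutrophil gene S100a8 gave r −0.52 (permutation p 0.0186, adjusted 0.0558, rho −0.51 with permutation p 0.0228) and missed it too. Without MSC 5 and TLR 3 these were −0.43 and −0.41. With counts scaled to total reads both passed, at r −0.61 and −0.56, by the same permutations, whose p values may be too small. For the other 5 markers, r was −0.29 for Bglap (bone), 0.077 for Prg4 (synovial lining), 0.13 for Adipoq (fat), 0.16 for Tnmd (tendon) and 0.24 for Pecam1 (endothelium), with adjusted permutation p of 0.399 to 0.758. The labels name no batch within which to repeat these relations.

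The balance of slow to fast fibre genes was followed in each joint as a log2 ratio of normalized counts, which does not depend on how a library is scaled. For Myh7 over Myh4 the log2 ratio was −10.43, −7.63, −14.95, −14.56 and −6.87 in CTRL joints 1 to 5, −12.85, −12.62, −8.20, −8.75 and −8.49 in the MSC joints, −10.39, −10.96, −8.27, −13.15 and −7.97 in the TLR joints and −12.25, −9.73, −11.26, −7.08 and −7.48 in the STING joints. It was highest in CTRL 5 and lowest in CTRL 3, 269.9-fold apart within the CTRL group. For the summed slow genes over the summed fast genes the log2 ratio was −9.42, −7.05, −11.34, −11.92 and −6.63 in CTRL joints 1 to 5, −10.11, −10.66, −7.77, −7.93 and −7.95 in the MSC joints, −9.88, −10.19, −7.51, −10.85 and −7.79 in the TLR joints and −10.57, −9.26, −10.13, −6.66 and −6.97 in the STING joints. CTRL 5 was again highest, CTRL 4 was lowest, and the span was 39.3-fold. Group means ± SD of this ratio (n = 5) were −9.27 ± 2.41 in CTRL, −8.88 ± 1.38 in MSC, −9.25 ± 1.50 in TLR and −8.72 ± 1.80 in STING, so groups differed by less than the spread within any of them. The light chain and troponin pairs gave spans of 27.0-fold (Myl2 over Mylpf), 40.1-fold (Myl3 over Myl1), 20.4-fold (Tnnt1 over Tnnt3) and 66.8-fold (Tnni1 over Tnni2). For all 5 pairs, CTRL 2, CTRL 5, STING 4 and STING 5 were among the 5 highest joints and CTRL 3, CTRL 4 and MSC 2 among the 5 lowest. All 6 pairs of groups overlapped for each ratio. The ratio of Tnnc1 to Tnnc2 was not analysed here.

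**Figure D3:**
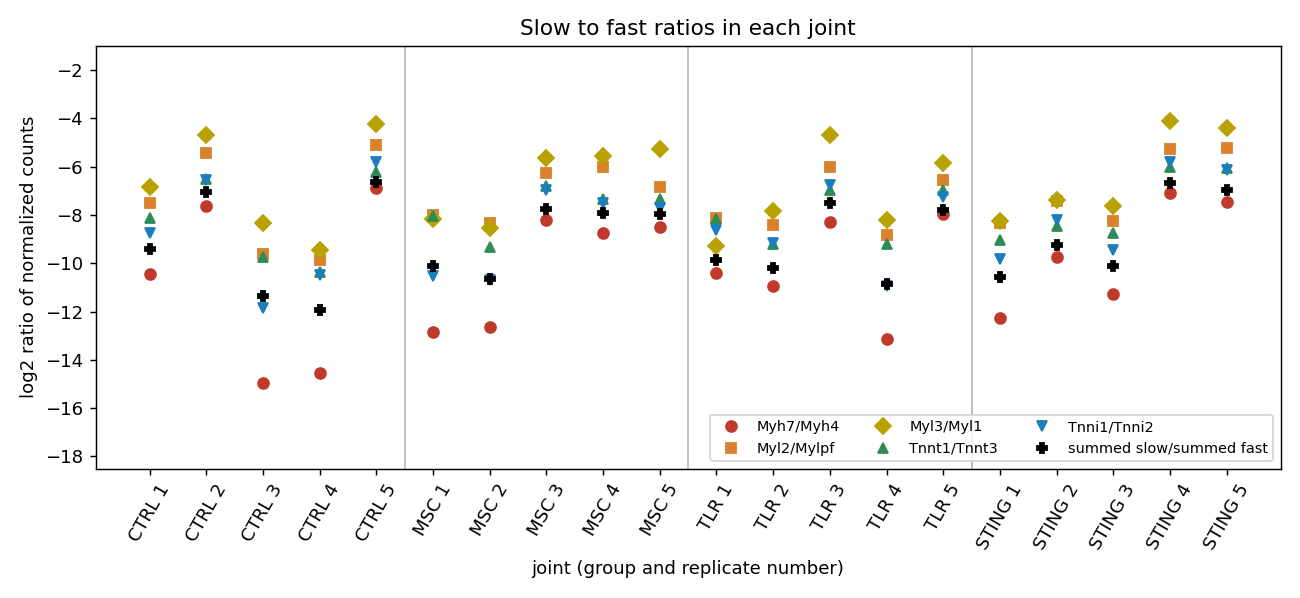
Log2 ratio of slow to fast normalized counts for 5 gene pairs and for the summed sets, with a point for each joint and groups side by side. The summed ratio runs from −11.92 (CTRL 4) to −6.63 (CTRL 5), with both ends in the CTRL group.

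Joints given non-activated cells had lower mean log2 levels of most fast and shared genes than joints given a needle alone. The median log2 fold change was −0.36 over the 38 genes, beside −0.036 over all 14793 genes, with 9 of 38 above 0 and 29 below. By set it was −0.43 for fast genes (2 of 13 above 0), −0.37 for shared genes (3 of 19) and 0.0093 for slow genes (4 of 6). With single joints left out, the median over the 38 ran from −0.60 (without MSC 5) to −0.16 (without MSC 1), the fast median from −0.65 (without MSC 5) to −0.22 (without MSC 1) and the slow median from −0.78 (without CTRL 4) to 0.62 (without CTRL 5). The slow median was −0.71 in DESeq2, so it has no fixed sign. Past the threshold of an unadjusted p of at most 0.05 with a fold of at least 2, limma called 0 of 38 genes, beside 0.73% of all genes. At an unadjusted p of at most 0.05 it called 0 of 38, beside 8.55% of all genes, and at an FDR of at most 0.05 again 0, beside 0.00676%. By edgeR and DESeq2 the count at that unadjusted p was also 0 (8.85 and 9.71% of all genes). The smallest p values belonged to Casq1, with a log2 fold change of −0.50 (95% confidence interval −1.18 to 0.17, exact p 0.167, limma FDR 0.676), Actn3, with −0.51 (95% confidence interval −1.19 to 0.17, exact p 0.143, limma FDR 0.679), and Mybpc2, with −0.49 (95% confidence interval −1.19 to 0.22, exact p 0.19, limma FDR 0.701). In 4 of 5 MSC joints Actn3 was below every CTRL joint, and in MSC 5 it was above them all. Without MSC 5, limma called 8 of 38 genes lower at an unadjusted p of at most 0.05 (Actn3, Casq1, Jph1, Mybpc2, Cacna1s, Atp2a1, Ryr1 and Tpm1), beside 4.91% of all genes lower in that fit, and 0 past the threshold. For Myh4 the log2 fold change was −0.55 (95% confidence interval −1.44 to 0.34, exact p 0.111, limma FDR 0.714), and for Myh7 0.15 (95% confidence interval −3.31 to 3.61, exact p 0.921, limma FDR 0.98).

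Joints given pIC-activated cells likewise had lower mean log2 levels than the needle-alone joints in 37 of 38 genes. By mean counts the direction turned for Neb, Ryr1 and Cacna1s, such as 93591 in TLR beside 91069.8 in CTRL for Neb. Myh7, higher in TLR by mean log2 level, had the lower mean count there, 1431 beside 2389.8 in CTRL. The median log2 fold change was −0.21 over the 38 genes, beside −0.0068 over all 14793 genes, with 1 of 38 above 0 and 37 below. By set it was −0.20 for fast genes (0 of 13 above 0), −0.26 for shared genes (0 of 19) and −0.19 for slow genes (1 of 6). With single joints left out, the median over the 38 ran from −0.48 (without TLR 3) to −0.017 (without TLR 1), the fast median from −0.38 (without TLR 3) to −0.03 (without TLR 1) and the slow median from −0.80 (without CTRL 3) to 0.49 (without CTRL 5). By limma, 0 of 38 genes passed the threshold (0.331% of all genes did), 0 reached an unadjusted p of 0.05 or less (3.58%) and 0 an FDR of at most 0.05 (0.0%), and by edgeR and DESeq2 0 reached an unadjusted p of 0.05 or less (3.81 and 4.26% of all genes). Ttn had the smallest p, with a log2 fold change of −0.38 (95% confidence interval −1.06 to 0.31, exact p 0.198, limma FDR 1), and was below every CTRL joint in 3 of 5 TLR joints. Casq1 followed with −0.33 (95% confidence interval −1.0 to 0.34, exact p 0.278, limma FDR 1), and Actn2 with −0.47 (95% confidence interval −1.47 to 0.53, exact p 0.484, limma FDR 1). The interval for Acta1 was −1.09 to 0.48 around −0.31.

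Joints given STING-activated cells and needle-alone joints had nearly equal mean log2 levels of the fast and shared genes. Mean log2 levels of the 6 slow genes were higher in the STING joints while their mean counts were lower, such as 2309.6 beside 2389.8 for Myh7, so the direction depends on the scale. The median log2 fold change was 0.016 over the 38 genes, beside 0.0078 over all 14793 genes, with 21 of 38 above 0 and 17 below. By set it was 0.013 for fast genes (7 of 13 above 0), −0.0064 for shared genes (8 of 19) and 0.60 for slow genes (6 of 6). With single joints left out, the median over the 38 ran from −0.17 (without STING 2) to 0.14 (without STING 5), the fast median from −0.21 (without STING 2) to 0.14 (without STING 5) and the slow median from −0.039 (without CTRL 4) to 1.30 (without CTRL 5). In edgeR the slow median was −0.23. By limma, 0 of 38 genes passed the threshold, although 2.06% of all genes did, 0 reached an unadjusted p of 0.05 or less, beside 12.2% of all genes, and 0 had an FDR of at most 0.05 (0.0%). The counts by edgeR and DESeq2 at that unadjusted p were 0 as well (13.3 and 15.2% of all genes). Myh7 had the smallest p, with a log2 fold change of 1.47 (95% confidence interval −1.99 to 4.93, exact p 0.46, limma FDR 0.756), a fold of 0.253 to 30.5, and no STING joint lay above all CTRL joints. Tpm2, a tropomyosin, had −0.29 (95% confidence interval −1.08 to 0.50, exact p 0.365, limma FDR 0.797), and Cacna1s, the voltage sensor of the calcium release complex, 0.21 (95% confidence interval −0.41 to 0.83, exact p 0.413, limma FDR 0.811). Acta1 had a log2 fold change of 0.00 (95% confidence interval −0.79 to 0.78, exact p 1, limma FDR 0.999), which bounds a difference in either direction to less than 2-fold, and Myh4 had 0.16 (95% confidence interval −0.73 to 1.05, exact p 0.556, limma FDR 0.913).

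Compared with non-activated cells, pIC-activated cells went with slightly higher mean log2 levels of most fast and shared genes and lower ones of 11 genes, Myh2, Myh1 and Actn2 among them. The median log2 fold change was 0.13 over the 38 genes, beside 0.029 over all 14793 genes, with 27 of 38 above 0 and 11 below. By set it was 0.17 for fast genes (11 of 13 above 0), 0.14 for shared genes (14 of 19) and −0.20 for slow genes (2 of 6). With single joints left out, the median over the 38 ran from −0.077 (without TLR 3) to 0.38 (without MSC 5), the fast median from −0.007 (without MSC 1) to 0.40 (without MSC 5) and the slow median from −0.74 (without TLR 3) to 0.33 (without MSC 5). In edgeR the slow median was 0.083. By limma, 0 of 38 passed the threshold (0.399% of all genes), 0 reached an unadjusted p of 0.05 or less (3.88%) and 0 an FDR of at most 0.05 (0.0%), and edgeR and DESeq2 gave 0 at that unadjusted p (3.99 and 4.70% of all genes). Myh2 had the smallest p, with a log2 fold change of −0.92 (95% confidence interval −2.37 to 0.53, exact p 0.254, limma FDR 0.978): 3 of 5 TLR joints were below every MSC joint and TLR 3 was above them all. Without TLR 3, Myh2 passed the threshold at a log2 fold change of −1.52, as the sole gene of the 38, beside 0.284% of all genes. Actn2 had −0.55 (95% confidence interval −1.55 to 0.46, exact p 0.444, limma FDR 0.978) and Myh1 −0.59 (95% confidence interval −1.67 to 0.50, exact p 0.444, limma FDR 0.978), each with 4 of 5 TLR joints below the MSC mean.

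Of the 6 medians over all 38 genes, the one farthest from 0 was that of STING-activated against non-activated cells, although the fast and shared medians lay farther from 0 for MSC against CTRL and the slow median for STING against TLR. Mean log2 levels were higher in the STING joints for most genes and lower for 6, Myh1 and Mybpc1 among them. The median log2 fold change was 0.40 over the 38 genes, beside 0.022 over all 14793 genes, with 32 of 38 above 0 and 6 below. By set it was 0.33 for fast genes (11 of 13 above 0), 0.36 for shared genes (15 of 19) and 0.63 for slow genes (6 of 6). With single joints left out, the median over the 38 ran from 0.16 (without MSC 1) to 0.61 (without MSC 5), the fast median from 0.13 (without STING 2) to 0.56 (without MSC 5) and the slow median from 0.16 (without MSC 1) to 1.19 (without MSC 5). By limma, 0 of 38 passed the threshold (0.507% of all genes), 0 reached an unadjusted p of 0.05 or less (4.94%) and 0 an FDR of at most 0.05 (0.0%). By edgeR 0 reached an unadjusted p of 0.05 or less (4.85% of all genes), and by DESeq2 1 did (6.28% of all genes), Myh4, at a log2 fold change of 0.67. Cacna1s had the smallest p in limma, with a log2 fold change of 0.60 (95% confidence interval −0.022 to 1.21, exact p 0.135, limma FDR 0.938), followed by Ryr1 with 0.61 (95% confidence interval −0.041 to 1.26, exact p 0.135, limma FDR 0.938) and Mybpc2 with 0.64 (95% confidence interval −0.063 to 1.35, exact p 0.151, limma FDR 0.938). All 5 STING joints were above the MSC mean for Cacna1s and Ryr1, whose proteins couple the fibre's action potential to calcium release, while 1 of 5 was above every MSC joint. The result turns on single joints: the count at an unadjusted p of at most 0.05 was 10 without MSC 5, 5 without STING 5 and 2 without STING 3, all higher in STING, beside 4.14, 2.72 and 3.08% of all genes higher in those fits. After quantile normalization it was 5, all higher, beside 1.91%. Myh4 had a log2 fold change of 0.71 (95% confidence interval −0.18 to 1.59, exact p 0.103, limma FDR 0.938), Myh1 −0.75 (95% confidence interval −1.83 to 0.34, exact p 0.167, limma FDR 0.938) and Myh7 1.32 (95% confidence interval −2.13 to 4.78, exact p 0.397, limma FDR 0.943).

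Between the activated-cell groups, 36 of 38 genes had a higher mean log2 level in the STING joints, the slow genes most and with the widest intervals. The median log2 fold change was 0.26 over the 38 genes, beside 0.021 over all 14793 genes, with 36 of 38 above 0 and 2 below. By set it was 0.18 for fast genes (12 of 13 above 0), 0.26 for shared genes (18 of 19) and 0.85 for slow genes (6 of 6). With single joints left out, the median over the 38 ran from 0.074 (without TLR 1) to 0.45 (without TLR 3), the fast median from −0.032 (without STING 2) to 0.38 (without TLR 3) and the slow median from 0.29 (without TLR 4) to 1.46 (without TLR 3). By limma, 0 of 38 passed the threshold (0.622% of all genes), 0 reached an unadjusted p of 0.05 or less (2.57%) and 0 an FDR of at most 0.05 (0.0%), and edgeR and DESeq2 gave 0 at that unadjusted p (4.09 and 4.58% of all genes). Ttn had a log2 fold change of 0.35 (95% confidence interval −0.33 to 1.03, exact p 0.325, limma FDR 0.89), Myh2 0.68 (95% confidence interval −0.77 to 2.13, exact p 0.397, limma FDR 0.89) and Cacna1s 0.26 (95% confidence interval −0.35 to 0.88, exact p 0.413, limma FDR 0.89), the 3 smallest p values. Myl3 had the highest log2 fold change, 0.98 (95% confidence interval −1.61 to 3.57, exact p 0.46, limma FDR 0.89). The comparisons share groups, so their values are not independent of each other. The column names carry 4 prefixes, 1 for each group, and whatever they stand for cannot be told apart from the treatment in any of these comparisons.

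**Figure D4:**
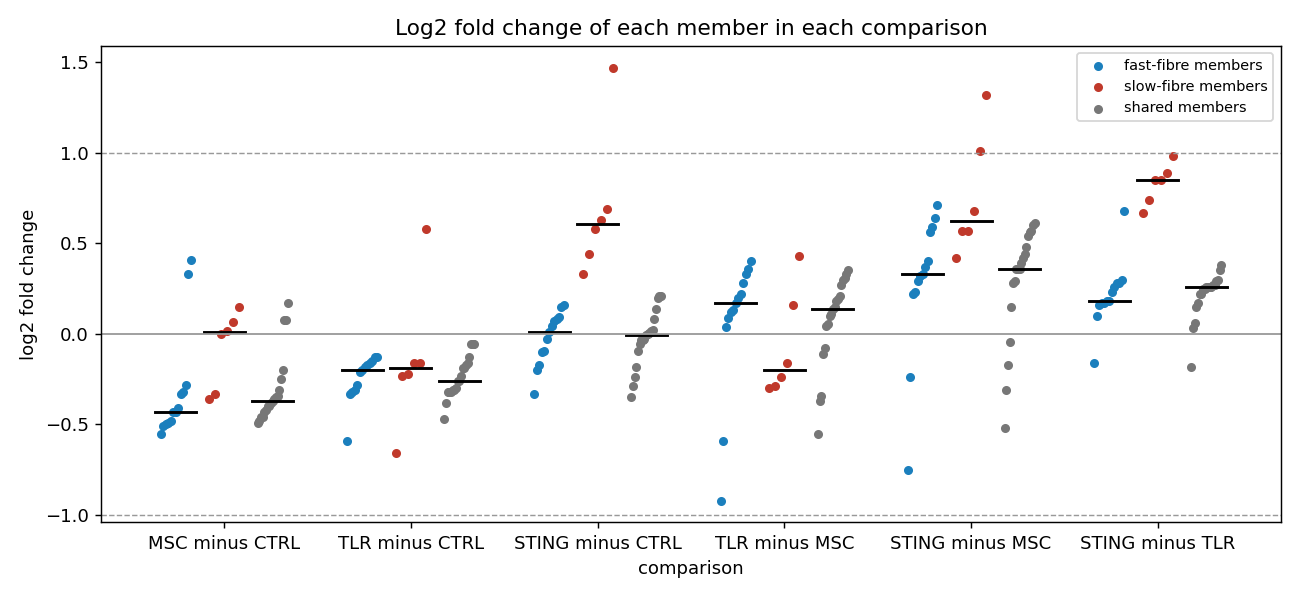
Log2 fold change of each of the 38 genes in the 6 comparisons, colored by set, with a black bar at the median of each set and dashed lines at a fold of 2. The medians of the fast genes run from −0.43 (MSC against CTRL) to 0.33 (STING against MSC), and those of the slow genes change sign with edgeR or DESeq2 in 3 of the 6 comparisons.

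Among all other genes of the table, those most like the contractile genes were ranked by Pearson's r with their mean log2 value over the 20 joints, group means subtracted. The 10 highest were Coro6 (0.962), Hspb6 (0.954), Adprhl1 (0.951), Alpk3 (0.951), Mfn1 (0.947), Lmod2 (0.945), Slc2a4 (0.944), Nfs1 (0.943), Gnpat (0.941) and Cyc1 (0.938). Lmod2 lengthens thin filaments, Slc2a4 is the insulin-responsive glucose transporter of muscle and fat, Hspb6 is a small heat shock protein abundant in muscle, and Cyc1 is a subunit of the respiratory chain. Coro6 ranged from 806 to 3089 normalized counts and Nfs1 from 970.4 to 1589.

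Other muscle genes were grouped in lists by function. Of 30 further sarcomere and membrane genes (most abundant Cmya5, 37388 normalized counts on average), 0 passed the threshold in any comparison, with medians of −0.33 for MSC against CTRL and 0.35 for STING against MSC. At an unadjusted p of at most 0.05 limma called Capn3, a muscle protease of the sarcomere, in both of those comparisons, at log2 fold changes of −0.71 (95% confidence interval −1.37 to −0.055, limma FDR 0.534) and 0.73 (95% confidence interval 0.075 to 1.39, limma FDR 0.938). It was the sole gene of the 30 called in each, and both comparisons use the MSC joints. Of all genes, 2.91% were lower at that p for MSC against CTRL and 2.77% higher for STING against MSC. Of 17 further energy genes (most abundant Pfkm, 54511), 0 passed, and 0 reached an unadjusted p of 0.05 or less. Of 9 other slow-type genes (most abundant Tpm3, 11198), 0 passed by either rule. Their summed count spanned 1.76-fold, from 18906 in TLR 4 to 33351 in CTRL 5, a sum made up mostly of Tpm3 and the calcium pump Atp2a2 (10027). Single genes of the list spanned up to 36.8-fold (Myoz2), with 28.6-fold for Sln and 17.5-fold for Ankrd2, and 5 of 9 had a residual SD above the 90th percentile of all genes. Sarcolipin (Sln), which restrains the calcium pump, and Tpm3 mark the ends of this list, with residual SDs of 1.56 and 0.16.

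Of 17 measured myogenic factors and satellite cell genes (most abundant Mef2c, 12084), 0 passed the threshold in any comparison, and 0 reached an unadjusted p of 0.05 or less. Myod1, which commits cells to muscle, averaged 280.0 normalized counts, Myog, which drives their differentiation, 36.2, and Pax7, the satellite cell marker, 22.7. Myh3 and Myh8, the embryonic and perinatal myosins of regenerating fibres, averaged 60.4 and 53.9, so they were present at low counts in all 20 joints. In that developmental list of 12 measured genes (most abundant Runx1, 2489), 0 passed the threshold, and Ankrd1, a stretch-responsive gene, reached an unadjusted p of 0.05 or less for STING against CTRL at −0.84 (95% confidence interval −1.58 to −0.11, limma FDR 0.374). Of 11 atrophy genes (most abundant Foxo3, 7050.0), the ubiquitin ligases Fbxo32 and Trim63 averaged 5347 and 2189 and were not called. Ddit4, an inhibitor of growth signalling through mTOR, fell past the threshold for STING against MSC, at −1.07 (95% confidence interval −1.54 to −0.61, limma FDR 0.539), with 5 of 5 STING joints below all MSC joints. How many of all genes separate these groups in this way was not counted. Over the atrophy list, 6 of 11 genes were above 0 in that comparison, with a median of 0.013. Ddit4 was also lower, at an unadjusted p of 0.05 or less but under a 2-fold difference, for TLR against CTRL (−0.46), STING against CTRL (−0.72) and TLR against MSC (−0.82), and many cell types other than muscle express it. Foxo1, a transcription factor of the atrophy program, was lower at that p for STING against TLR, at −0.52 (95% confidence interval −0.97 to −0.065, limma FDR 0.89). Of all genes, 0.264% were lower past the threshold for STING against MSC. At an unadjusted p of 0.05 or less, 0.906% were lower for TLR against CTRL and 5.69% for STING against CTRL. For TLR against MSC and STING against TLR these shares were 1.99 and 1.78%.

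Markers of other tissues in the same libraries varied beside the muscle genes. Beyond the relations of Acta1 with single markers given above, their part in the muscle values was not tested, and 0 genes of these lists had a limma FDR of at most 0.05 in any comparison. The calls given here are those past the unadjusted threshold, by limma. Of all genes, 1.78% were lower past it for STING against CTRL, 0.460% for MSC against CTRL, 0.561% for STING against TLR and 0.101% for TLR against CTRL, where 0.230% were higher. With single joints left out, the share for STING against CTRL ran from 0.656% (without CTRL 4) to 2.74% (without CTRL 1). For MSC against CTRL it ran from 0.203% (without CTRL 4) to 2.54% (without MSC 2). The summed count of 8 tendon genes (most abundant Comp) averaged 66921 ± 38352 in CTRL, 45197 ± 49567 in MSC, 51165 ± 33958 in TLR and 24075 ± 6479.8 in STING, and 3 of 8 were lower past the threshold for STING against CTRL, including Thbs4 at −1.86 (95% confidence interval −3.26 to −0.47, limma FDR 0.33) and Tnmd at −1.46 (95% confidence interval −2.83 to −0.10, limma FDR 0.386). Thbs4 was also lower for MSC against CTRL, at −1.47, and Kera for STING against TLR, at −1.27. The sum of 10 synovial lining and fibroblast genes (most abundant Prg4) averaged 513026 ± 293540.3 in CTRL, 336235 ± 289812 in MSC, 459535 ± 187267 in TLR and 200013 ± 80785 in STING, with Htra1 and Col3a1 lower past the threshold for STING against CTRL, at −1.93 and −2.05 (4 of 10 above 0 and a list median of −0.64), and Htra1 for STING against TLR, at −1.63. The sum of 10 cartilage genes (most abundant Col2a1) ranged from 7810.3 in TLR 3 to 136681 in MSC 2, with 0 of 10 past the threshold in any comparison. Of 10 bone genes (most abundant Col1a1), Spp1 was lower past the threshold for STING against CTRL, at −1.06 (3 of 10 above 0 and a list median of −0.09), and the sum ranged from 92449 in TLR 4 to 595431 in CTRL 3; Bglap averaged 4456. Of 10 adipocyte genes (most abundant Cfd), Cfd and Plin1 were higher for TLR against CTRL, at 1.01 and 1.04 (10 of 10 above 0 and a list median of 0.74), and Adipoq averaged 2216.

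Blood and marrow genes were abundant too. Of 10 neutrophil and marrow granulocyte genes (most abundant S100a9, 185112), 6 for MSC against CTRL and 8 for STING against CTRL were higher at an unadjusted p of at most 0.05, with medians of 0.51 and 0.51 and 0 past the threshold. Of all genes, 5.64 and 6.54% were higher at that p in these comparisons. Of 8 endothelial genes (most abundant Vwf), 5 were lower at that p for STING against CTRL, at a median of −0.50, beside 5.69% of all genes. For 10 macrophage genes (most abundant Lyz2), 10 erythroid genes (most abundant Hbb-bs), 10 B lineage genes (most abundant Cd79b) and 8 Schwann and nerve genes (most abundant Pmp22), 0 passed the threshold in any comparison. Of 8 smooth muscle genes (most abundant Synpo2), Actg2 was lower for TLR against CTRL, at −1.36 (0 of 8 above 0 and a list median of −0.48), and the smooth muscle myosin Myh11 averaged 1677. Of 7 cardiac genes (most abundant Actc1, also in the developmental list), Ryr2 was lower for STING against CTRL, at −1.34 (3 of 7 above 0 and a list median of −0.054). The summed count of 8 epidermal genes (most abundant Krt10) was 23996 in TLR 4, 7674 in CTRL 1 and at most 1756 in the other 18 joints. Of these 8, Krt79 was higher for TLR against CTRL, at 1.79, and 5 were lower for STING against TLR past the threshold, such as Krt5 at −5.01.

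The genes lie on many chromosomes, with a few close neighbours. Myh2, Myh1 and Myh4 stand in a row on chromosome 11 on the same strand, and Tnni2 (141995545 to 141998148) lies upstream of Tnnt3 on chromosome 7. Promoter sequences from RefSeq (build GRCm38.p6) were found for 30 of the 39 genes, and the 250 bases before the start were searched on both strands, TATAAA on the strand of the gene only. The letters CANNTG (an E-box, bound by myogenic factors such as MyoD) were present in 26 of 30 promoters, 86.7%, beside 69.3% of 27025 genes. CATTCC (the MCAT element, bound by TEAD factors) was present in 11, 36.7% beside 14.4%, and TATAAA in 4, 13.3% beside 8.94%. A MEF2 motif was found in 4 (13.3% beside 3.42%) and a CArG box, the serum response element, in 4 (13.3% beside 1.62%). The E-box letters were in 8 of 10 fast, 6 of 6 slow and 12 of 14 shared promoters, and MCAT letters in 4, 3 and 4 of them. Myh4 held all 5 motifs, Myh1 held TATAAA, MCAT and MEF2 letters, and Myh2 held none of the 5. TATAAA letters can lie within a MEF2 or CArG match, so these counts are not independent. A match says only that the letters are there.

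The promoters of the 3 fast heavy chains are shown because the genes are neighbours with widely differing levels, and those of Tnnc1 and Tnnt1 because they are slow genes whose counts moved together across joints. Each run holds 250 bases, 5′ to 3′ toward the gene, and capitals mark the letters CANNTG and TATAAA. Their positions are chr11:67237562-67237811, chr11:67199852-67200101 and chr11:67170777-67171026 on the plus strand, chr14:31208062-31208311 on the plus strand and chr7:4515976-4516225 on the minus strand. A run of 20 bases is common to the 3 fast heavy chain promoters, and it begins 163, 165 and 130 bases before the start of Myh4, Myh1 and Myh2.
Myh4 promoter: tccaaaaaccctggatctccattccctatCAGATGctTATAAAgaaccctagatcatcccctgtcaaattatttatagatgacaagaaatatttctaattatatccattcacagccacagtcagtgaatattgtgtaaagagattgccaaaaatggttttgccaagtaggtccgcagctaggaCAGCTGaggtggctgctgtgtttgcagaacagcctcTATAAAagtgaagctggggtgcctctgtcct
Myh1 promoter: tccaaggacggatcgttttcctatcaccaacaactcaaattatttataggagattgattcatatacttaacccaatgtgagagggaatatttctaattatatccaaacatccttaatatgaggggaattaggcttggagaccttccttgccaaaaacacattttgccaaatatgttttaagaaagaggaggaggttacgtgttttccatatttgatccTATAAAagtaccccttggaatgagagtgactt
Myh2 promoter: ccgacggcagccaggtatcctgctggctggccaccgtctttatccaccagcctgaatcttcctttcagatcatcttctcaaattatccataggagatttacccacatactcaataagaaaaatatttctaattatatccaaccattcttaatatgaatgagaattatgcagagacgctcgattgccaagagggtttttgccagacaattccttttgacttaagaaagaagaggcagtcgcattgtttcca
Tnnc1 promoter: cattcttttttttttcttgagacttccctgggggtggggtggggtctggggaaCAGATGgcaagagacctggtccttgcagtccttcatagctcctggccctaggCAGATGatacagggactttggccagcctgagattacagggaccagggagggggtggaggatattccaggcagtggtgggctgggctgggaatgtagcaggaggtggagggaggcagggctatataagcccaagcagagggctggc
Tnnt1 promoter: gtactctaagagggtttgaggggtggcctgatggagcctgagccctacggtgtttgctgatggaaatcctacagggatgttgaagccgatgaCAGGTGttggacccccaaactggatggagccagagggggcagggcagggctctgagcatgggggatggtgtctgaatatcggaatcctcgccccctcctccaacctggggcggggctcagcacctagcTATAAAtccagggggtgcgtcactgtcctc
Shared run of Myh4, Myh1 and Myh2: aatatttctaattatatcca
Myh4 held 2 CANNTG and 2 TATAAA matches, Myh1 0 and 1, Myh2 0 and 0, Tnnc1 2 and 0, and Tnnt1 1 and 1.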

How the data were processed

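PolyA RNA from 20 mouse knee joints was sequenced, and per the labels reads were aligned with STAR 2.7.3a to GRCm39 and counted with HTSeq. The authors deposited normalized signal, gene counts divided by one median-ratio size factor per joint. Whole reads were recovered from the step between values in each column (99.8% or more of values whole within 0.1 read). Groups were compared with limma 3.58.1 (R 4.3.3) with its mean-variance trend, applied to log2 of the normalized count plus 1 for 4 groups and 6 contrasts, two-sided, with FDR over all 14793 genes and no further filter. edgeR 4.0.16 and DESeq2 1.42.0 were run on recovered reads. Exact permutation tests used all 252 splits of 5 against 5 joints (smallest p 0.00794), and relations used 100000 permutations (Python 3.11.15, scipy 1.17.1). The procedure was tested on simulated data with the same spread setting for every gene. That test does not tell what difference could be found at the spread of the slow-fibre genes. Results were recomputed with a pseudocount of 0.5 or 5, with genes under a mean of 20 removed, in fits of 2 groups, with quantile, total, non-member and TMM scaling, with a replicate block, and without each joint. No joints of a group were copies of each other (lowest chi-square per gene between joints 24.1). Genes named in full are 24 chosen by role, the 3 smallest p values in each comparison, the ends of ranges, the most abundant gene and defining markers of each other list, up to 2 genes a list past the threshold, and the 10 genes most like the members. Capn3, Ankrd1, Sln, Foxo1, Myoz2, Ankrd2, Atp2a2 and the joints left out by name were singled out after their values were seen. The members and lists were chosen with earlier results of these data known.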

Additional observations from a re-analysis of the deposited data

Results flagged for a closer look

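In each group of 5 joints, the highest or lowest joint was compared with the rest, and a joint was listed when its gap to the nearest other joint took up more than 0.71 of the group's range, on log2 values. Of 180 such groups, 5 held such a joint, while chance gives about 1 in 20. In TLR 1, Myh1 was at 7862 normalized counts against 35842 to 50748 in the other 4 TLR joints, and Mybpc1 was at 2634 against 15314 to 20211. In CTRL 3, Atp2a1 was at 228839 against 284190.0 to 300451 in the other CTRL joints, and Ryr1 at 50099 against 67307 to 73672. In STING 2, Mybpc1 was at 19218 against 8349.6 to 10271 in the other STING joints.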

How the results depend on the processing

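Across 11 settings of scaling and test and 20 fits each without 1 joint, the count of members past the threshold was 0 in all 6 comparisons, except TLR against MSC, where leaving out single joints gave 0 to 1 (1 without TLR 3). The count at an unadjusted p of at most 0.05 for STING against MSC was 5 after quantile normalization, 1 with total read scaling and 1 by DESeq2, beside 4.33, 4.38 and 6.28% of all genes. Leaving out single joints, that count was 0 to 10 for STING against MSC, 0 to 8 for MSC against CTRL and 0 to 1 for TLR against MSC. At an FDR of at most 0.05 it was 0 throughout. Taking the median over genes in place of the sum moved the mean slow to fast log2 ratio from −9.27 to −7.55 in CTRL, −8.88 to −7.35 in MSC, −9.25 to −7.57 in TLR and −8.72 to −6.74 in STING. With total read scaling, r was −0.61 for Acta1 with Col2a1 and −0.56 for Acta1 with S100a8. The cause was not tested. Set medians changed sign in 37 of 378 settings. The share of reads without each joint, chosen after seeing the data, moved by less than 1 SD in 20 of 20 settings. Same-numbered joints had a mean r of −0.118, −0.144, 0.108, 0.0927, −0.0384 and −0.0984 in the 6 comparisons. Single r values ran from −0.658 to 0.464 for MSC against CTRL, and joints of different number were not compared. Pairing by number was therefore not shown, and these values cannot decide it. With the replicate number as a block 0 members passed the threshold in each comparison. Depth limits the lowest slow-fibre counts, which rest on 17 reads.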

Other observations

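The joints with the lowest slow to fast ratios were compared with the summed counts of connective tissue genes after both were seen. CTRL 3, CTRL 4 and MSC 2, which were among the 5 lowest for all 5 slow to fast pairs, had summed tendon counts of 93820.3, 118674 and 131229 and summed cartilage counts of 115048, 122741 and 136681. TLR 4 and STING 1, whose summed slow to fast log2 ratios of −10.85 and −10.57 were also among the 5 lowest, had 26407 and 27233 for tendon and 14955 and 24576 for cartilage. TLR 5, whose summed slow to fast log2 ratio was −7.79, had 106872 and 115849. CTRL 5, with the highest ratio, had 39646 and 28479.7. No relation between these sums and the ratios was tested.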
